A study of Mus musculus with 6 samples.

Results

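A set of 9 genes that move calcium between the cytosol, the endoplasmic reticulum and the outside of the cell was followed in E0771 mouse breast cancer cells: 3 inositol trisphosphate (IP3) receptor genes that release the store (Itpr1, Itpr2, Itpr3), 3 calcium pump genes (Atp2a2, Atp2a3, Atp2b1) and 3 genes of store-operated entry (Stim1, Stim2, Orai1). They were taken by gene symbol from the authors' deposited tables, as 9 of 11024 genes in the table for Enniatin A (EnnA) and 8 of 11305 in the table for 17-AAG, with Atp2a3 analysed in the EnnA table only. All samples were E0771 cells of C57BL/6 background grown for 48 h. One group was treated with EnnA at 7.4 µM for 24 h, one with 17-AAG at 0.5 µM for 24 h, and one with DMSO, whose time of exposure the labels do not give. Each of the 3 groups had 2 libraries, and each table holds a single value per gene and group, pooled by the authors. These values were read as FPKM, the sequenced fragments scaled to transcript length and library size, from the layout of Cuffdiff output, since the column headers name no unit. Values per library were not analysed here, so no spread between libraries stands beside a level. E0771 is a single established line. Nothing in the labels tells if libraries within a group are separate cultures, so the p-values may reflect technical spread alone.

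The endoplasmic reticulum is the main calcium store of most cells. IP3, made when surface receptors activate phospholipase C, opens IP3 receptors and lets calcium out; SERCA pumps return it to the store, and PMCA pumps of the surface membrane expel it. When the store empties, STIM proteins that sense lumenal calcium open ORAI channels in the surface membrane, which is called store-operated entry. Enniatin A, a cyclic depsipeptide from Fusarium, is a cation ionophore. The geldanamycin analog 17-AAG inhibits the chaperone HSP90.

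With EnnA, 5 of the 9 genes were called higher and 1 lower: Itpr1, Itpr2, Atp2a2, Atp2a3 and Stim1 rose, Stim2 fell, and Itpr3, Atp2b1 and Orai1 were not called. Every gene in the EnnA table reached at least 0.561 FPKM in one of its groups, and Atp2a3 did so through its EnnA value alone, so its listing fixed the direction of its change and it adds nothing to the count. Without it 4 of 8 rose and 1 fell. With 17-AAG, 2 of 8 were higher (Itpr2 and Stim1), Orai1 was lower, and the other 5 were not called. A gene was called at a q under 0.05, the Cuffdiff p adjusted by the authors over all genes of a table. By that rule 49.2% of all genes in the EnnA table and 31.6% of those in the 17-AAG table were called, 24.3% and 15.6% as higher and 24.9% and 16.1% as lower. The 9 genes were chosen with earlier results of these data known, so their counts cannot show that such genes changed more often. The median log2 change, taken with 1 FPKM added to both groups, was 0.56 over the 9 genes with EnnA, 0.27 without Atp2a3, and 0.13 over the 8 with 17-AAG, beside -0.01 over all genes in each table.

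With DMSO the 9 genes spanned a wide range of levels per length. In the EnnA table Atp2b1 and Atp2a2 stood highest at 38.9 and 37.1 FPKM, followed by Itpr3 at 14.6, Stim1 at 10.7, Stim2 at 5.26, Orai1 at 5.14, Itpr1 at 2.51, Itpr2 at 1.22 and Atp2a3 at 0.122 FPKM. Atp2b1 stood 1.05-fold above Atp2a2 and Stim2 1.02-fold above Orai1, and with pooled values neither pair could be set against a spread between libraries. The order of the 8 genes was the same in the 17-AAG table. There each DMSO value was 1.10 times that in the EnnA table, which is also the median ratio of the DMSO columns over all genes, so levels were compared within a table.

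**Figure D1:**
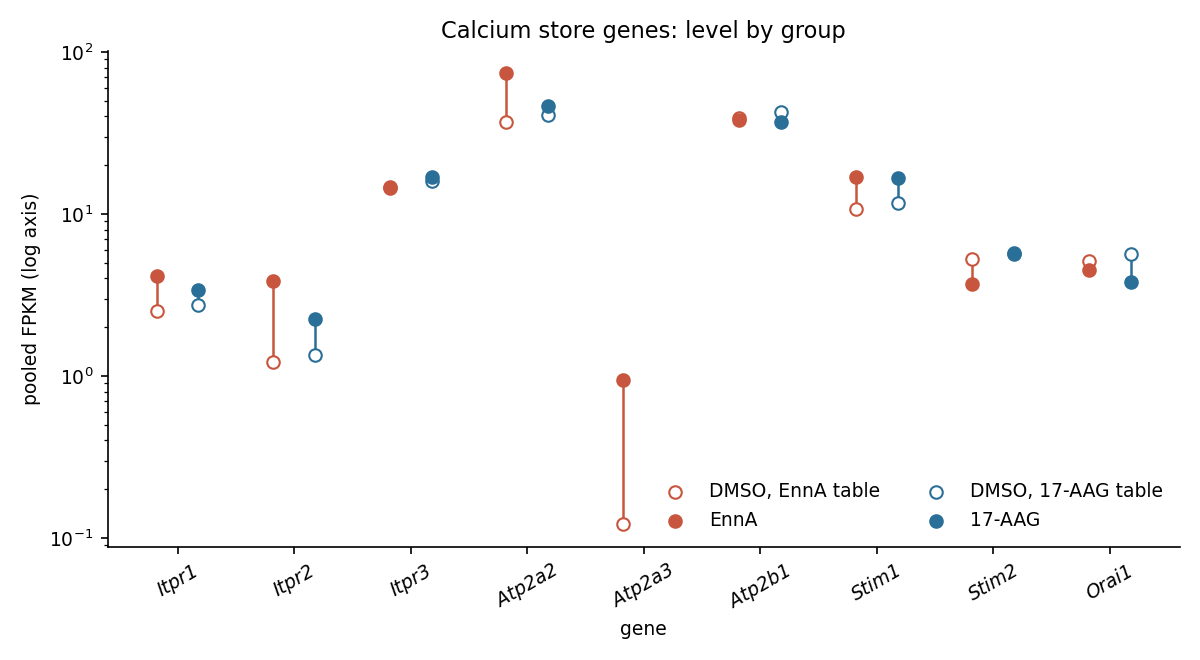
Pooled FPKM (log axis) of each gene with DMSO (open circles) and with the compound (filled circles), in the EnnA table (red) and the 17-AAG table (blue). With EnnA, Itpr2 moved from 1.22 to 3.84 FPKM and Atp2a2 from 37.1 to 73.8 FPKM, while Itpr3 and Atp2b1 overlie their DMSO points.

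The release channels did not change alike. Itpr2 encodes the type 2 receptor (chromosome 6, 146056820 to 146450745). Loci are those of the authors' deposited tables, in mm9, with no statement on whether starts count from 0 or 1, and none of the 9 overlapped the locus of another gene there. Itpr2 stood at 1.22 FPKM with DMSO and 3.84 FPKM with EnnA, which is 3.14-fold higher. Its log2 change was 1.12 with 1 FPKM added, and its log2 ratio without it was 1.65 (standard error implied by the authors' p, at most 0.41; q = 0.000207 in the authors' deposited table). With 17-AAG the same gene went from 1.34 to 2.25 FPKM, 1.68-fold higher (log2 ratio 0.75, implied SE at most 0.18; q = 0.000453 in the authors' deposited table). The change with EnnA was at percentile 97.1 and that with 17-AAG at percentile 89.9 of all genes in the table. Itpr2 was thus higher with both compounds, which were compared with the same DMSO libraries.

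Itpr1, the type 1 receptor that predominates in neurons (chromosome 6, 108163089 to 108501110), was at 2.51 FPKM in DMSO-treated and 4.16 FPKM in EnnA-treated cells, 1.66-fold higher (log2 ratio 0.73, implied SE at most 0.18). With 17-AAG it stood at 3.41 FPKM beside 2.75 FPKM with DMSO and was not called (log2 ratio 0.31, 95% interval 0.00 to 0.62; q = 0.117 in the authors' deposited table). Itpr3, the type 3 receptor (chromosome 17, 27194248 to 27259168), was the most abundant of the family, at 14.6 FPKM with DMSO and 14.4 FPKM with EnnA, and at 16.0 and 17.0 FPKM in the 17-AAG table. Its log2 ratios were -0.02 (95% interval -0.32 to 0.27) and 0.08 (-0.20 to 0.37).

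The make-up of the IP3 receptor transcripts therefore shifted. Itpr3 made up 79.6% of the family's summed FPKM with DMSO, 64.2% with EnnA and 75.0% with 17-AAG. Itpr2 made up 6.67% with DMSO, 17.2% with EnnA and 9.95% with 17-AAG, and Itpr1 made up 13.7%, 18.6% and 15.1%. The sum of the family went from 18.3 to 22.4 FPKM with EnnA and from 20.1 to 22.6 FPKM with 17-AAG. These shares come from pooled values and were not tested.

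**Figure D2:**
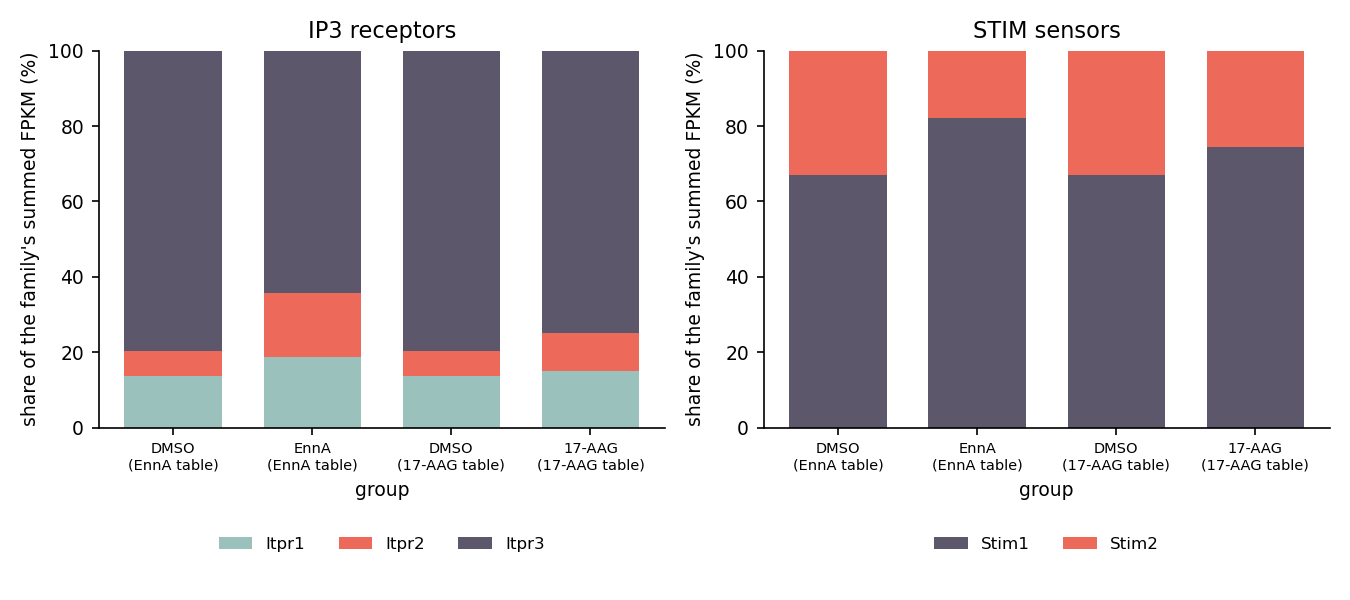
Share of each gene in its family's summed FPKM (percent, stacked to 100), for the IP3 receptors (left) and the STIM sensors (right), with DMSO and compound bars of each table. Itpr2 took 6.67% with DMSO and 17.2% with EnnA, and Stim1 took 67.0% with DMSO and 82.1% with EnnA.

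Among the pumps, Atp2a2 of the store rose with EnnA and Atp2b1 of the surface membrane was not called. Atp2a2, which encodes SERCA2, the SERCA pump of most tissues (chromosome 5, 122903521 to 122952234), was at 37.1 FPKM in DMSO-treated and 73.8 FPKM in EnnA-treated cells. This 1.99-fold rise (log2 ratio 0.99, implied SE at most 0.24; q = 0.000207 in the authors' deposited table) added 36.6 FPKM, the largest absolute gain among the 9 genes. With 17-AAG it stood at 46.3 FPKM beside 40.7 FPKM and was not called (log2 ratio 0.19, 95% interval -0.10 to 0.47). Atp2a3, which encodes SERCA3, a pump known from blood cells and epithelia (chromosome 11, 72774670 to 72806545), stood at 0.122 FPKM with DMSO and 0.947 FPKM with EnnA. It was called higher, with a log2 ratio of 2.96 (implied SE at most 0.73) that was 0.80 with 1 FPKM added, and both levels were under 1 FPKM. The EnnA table holds 188 genes with DMSO under the listing level, of which all 188 were higher with EnnA and 96 were called, so the direction and size of the Atp2a3 value cannot be read apart from the listing. Atp2a2 made up 99.7% of the summed SERCA FPKM with DMSO and 98.7% with EnnA.

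Atp2b1, which encodes the widespread surface membrane pump PMCA1 (chromosome 10, 98377785 to 98488777), stood at 38.9 and 37.7 FPKM with DMSO and EnnA (log2 ratio -0.05, 95% interval -0.34 to 0.25). In the 17-AAG table it stood at 42.7 and 36.7 FPKM (log2 ratio -0.22, -0.50 to 0.06), again not called. The ratio of Atp2a2 to Atp2b1 was 0.953 with DMSO, 1.96 with EnnA and 1.26 with 17-AAG.

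The store sensors moved apart. Stim1, the main activator of store-operated entry (chromosome 7, 109416337 to 109585369), was at 10.7 FPKM in DMSO-treated and 16.8 FPKM in EnnA-treated cells, 1.58-fold higher (log2 ratio 0.66, implied SE at most 0.16). It went from 11.7 to 16.6 FPKM with 17-AAG, 1.42-fold higher (log2 ratio 0.51, implied SE 0.16; q = 0.00675 in the authors' deposited table). Stim2, a sensor that responds to smaller falls of store calcium than STIM1 (chromosome 5, 54389761 to 54512296), fell with EnnA, from 5.26 to 3.67 FPKM (log2 ratio -0.52, implied SE 0.17; q = 0.00624 in the authors' deposited table). With 17-AAG Stim2 stood at 5.67 FPKM beside 5.76 FPKM (log2 ratio -0.02, 95% interval -0.34 to 0.29). The ratio of Stim1 to Stim2 was 2.03 with DMSO, 4.58 with EnnA and 2.92 with 17-AAG.

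Orai1, the channel pore that STIM proteins open (chromosome 5, 123465082 to 123480461), fell with 17-AAG, from 5.63 to 3.79 FPKM, 1.49-fold lower (log2 ratio -0.57, implied SE 0.21; q = 0.0235 in the authors' deposited table). With EnnA it stood at 4.52 FPKM beside 5.14 FPKM and was not called (log2 ratio -0.18, 95% interval -0.59 to 0.22). At a q under 0.01 Orai1 was not called with 17-AAG either. The ratio of Stim1 to Orai1 was 2.07 with DMSO, 3.72 with EnnA and 4.38 with 17-AAG.

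**Figure D3:**
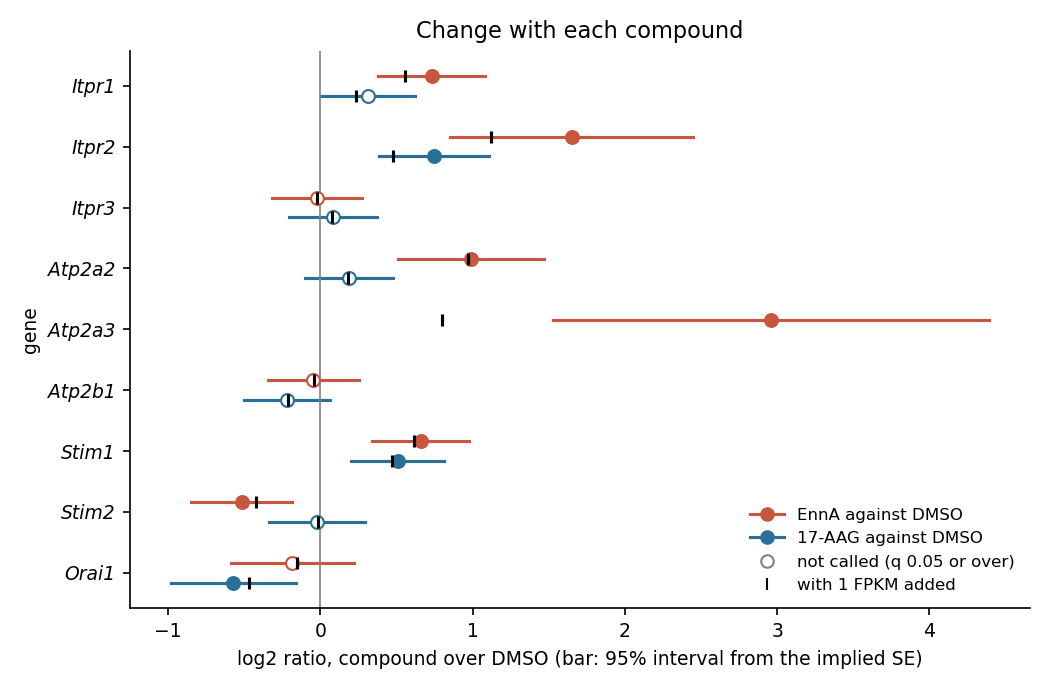
Log2 ratio of each compound over DMSO for each gene (circles, filled where called at q under 0.05), with the 95% interval from the implied standard error (bars, an upper limit where p is at its lowest listed value) and the value with 1 FPKM added (black ticks). Stim1 and Itpr2 lie above 0 with both compounds, Stim2 lies below 0 with EnnA and Orai1 below 0 with 17-AAG; the tick for Atp2a3 is at 0.80, far from its circle at 2.96.

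RefSeq promoter windows (GRCm38.p6, 250 bases before to 50 after a gene's start) matched 7 of the 9 genes, in 8 windows. Itpr1 and Atp2a2 had none. The 3 below are shown because Itpr2 and Stim1 were higher with both compounds while Stim2 was lower with EnnA. The 250 bases before the start are printed 5′ to 3′ on the gene's strand, with each CG dinucleotide in capitals: chr6:146502224-146502473 on the minus strand for Itpr2, and chr7:102267569-102267818 and chr5:53998273-53998522 on the plus strand for Stim1 and Stim2.
Itpr2: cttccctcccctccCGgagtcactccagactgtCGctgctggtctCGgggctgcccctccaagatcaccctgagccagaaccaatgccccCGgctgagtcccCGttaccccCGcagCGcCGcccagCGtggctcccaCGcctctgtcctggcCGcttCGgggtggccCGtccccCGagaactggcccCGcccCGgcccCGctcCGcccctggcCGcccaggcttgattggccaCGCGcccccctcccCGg
Stim1: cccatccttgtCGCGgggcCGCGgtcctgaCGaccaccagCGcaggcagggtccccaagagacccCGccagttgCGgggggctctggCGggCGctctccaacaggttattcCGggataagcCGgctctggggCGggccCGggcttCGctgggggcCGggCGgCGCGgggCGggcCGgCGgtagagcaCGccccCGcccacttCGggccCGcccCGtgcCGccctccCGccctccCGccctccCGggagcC
Stim2: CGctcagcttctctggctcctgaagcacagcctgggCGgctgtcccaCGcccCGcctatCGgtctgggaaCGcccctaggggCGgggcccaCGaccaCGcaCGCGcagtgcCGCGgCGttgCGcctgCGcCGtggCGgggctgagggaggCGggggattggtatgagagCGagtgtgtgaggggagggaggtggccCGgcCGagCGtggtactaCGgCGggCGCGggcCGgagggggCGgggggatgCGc

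All 3 stretches are dense in CG dinucleotides, with 22 in Itpr2, 31 in Stim1 and 30 in Stim2. Over the whole windows of 300 bases the 8 had 68.3 to 79.3% G and C and 25 to 54 CG dinucleotides, beside medians of 52.7% and 7 over 32851 RefSeq windows. Those windows belong to 27025 genes, listed in these data or not. The 8 were not compared with listed genes alone. Each window was searched on both strands for the ER stress response element (CCAAT and CCACG with any 9 bases between), the unfolded protein response element TGACGTG, the C/EBP-ATF response element TGATGNAAT and a heat shock element (GAA and TTC in alternation, any 2 bases after each of the first pair, either order first). The search did not reach Itpr1 and Atp2a2, which had no window. None of these letters occurred in the 8 windows. They occurred in 0.119%, 2.01%, 0.965% and 0.603% of all windows, so few matches would be met in any 8 of them.

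Whether the compounds differ was tested as the EnnA log2 ratio minus the 17-AAG log2 ratio, a z test with both implied errors adjusted by Benjamini-Hochberg over 10922 genes. By this test 38.2% of all genes were called, 19.3% with the EnnA change above that of 17-AAG and 18.8% below it. Atp2a2 alone was called among the 8 genes in both tables: the Atp2a2 change with EnnA exceeded that with 17-AAG by 0.80 on the log2 scale (95% interval 0.25 to 1.36). Itpr2 had a larger difference, 0.90, that was not called (0.03 to 1.78). The p of Itpr2 was at its lowest listed value with both compounds, and that of Atp2a2 with EnnA. Their errors are thus upper limits that grow with the change, and their intervals may be too wide. A call for Atp2a2 and not for Itpr2 therefore does not rank them. For Stim2 the difference was -0.50 (-0.95 to -0.04), also not called. At an unadjusted p under 0.05, 2 genes had the higher change with EnnA and 1 had the lower, against 1 and 0 after adjustment.

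For the remaining genes the intervals of the difference included 0. They were -0.05 to 0.89 for Itpr1 and -0.19 to 0.96 for Orai1, which leaves room for differences near 2-fold, and -0.29 to 0.59 for Stim1, -0.52 to 0.30 for Itpr3 and -0.24 to 0.58 for Atp2b1. Both tables rest on the same DMSO libraries, and the errors were combined as if independent. The errors of Itpr1 and Stim1 with EnnA are upper limits, so their intervals may also be too wide.

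Both tables held a trend with expression, in opposite directions. In the tenth of genes that held Itpr1 and Itpr2 the median log2 ratio was -0.28 with EnnA and 0.24 with 17-AAG. In the tenth that held Atp2a2 it was 0.18 with EnnA and -0.12 with 17-AAG. With these medians taken off, the difference for Atp2a2 was 0.50 and no longer called, while those for Itpr1 (0.93) and Itpr2 (1.42) were called. No member's call against DMSO rests on this step, since those calls are the authors' q. For the log2 changes with 1 FPKM added, the medians of those changes were taken off instead, and every called change kept its sign. In the tenth that held Itpr2 they were -0.19 with EnnA and 0.18 with 17-AAG. Itpr2 then stood at 1.31 with EnnA and 0.30 with 17-AAG.

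**Figure D4:**
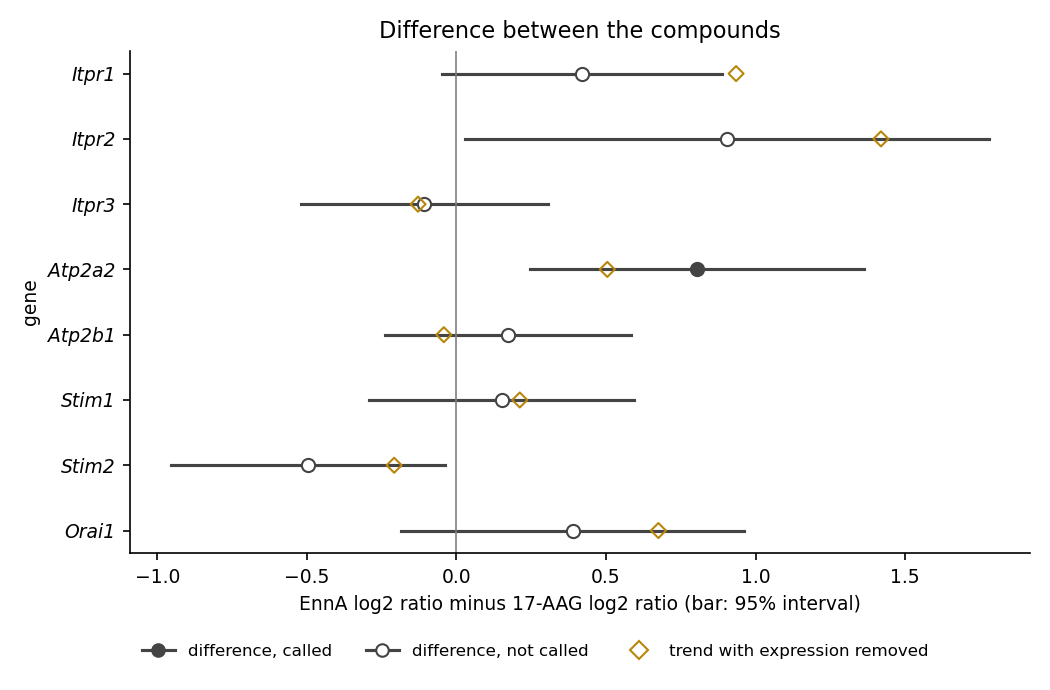
EnnA log2 ratio minus 17-AAG log2 ratio for the 8 genes in both tables (circles, filled where called), with the 95% interval from both implied errors (bars) and the value once the trend with expression was taken off (diamonds). Bars of Itpr1, Itpr2, Atp2a2 and Stim1, whose p with EnnA is at its lowest listed value, are upper limits in width. Atp2a2 is the one filled circle, at 0.80, and its diamond is at 0.50; the diamonds of Itpr1 and Itpr2 are at 0.93 and 1.42.

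By Euclidean distance over the log2 changes with each compound, among 6644 genes called in at least 1 table, the genes most like Itpr2 were 1600020E01Rik (log2 changes 1.11 and 0.48), Clptm1 (1.08 and 0.49) and 2410002F23Rik (1.07 and 0.47, uncertain as its locus overlaps that of another gene). Most like Atp2a2 were 2410131K14Rik, Abhd2 and Trmt13, at distances of 0.01, 0.01 and 0.02. Trmt13 is uncertain too, as its locus overlaps that of another gene. Most like Stim1 were Ccdc93, Kat8 and Dclk2, at 0.02 each. Such likeness rests on 3 groups alone: 13, 42 and 47 genes lay within 0.1 of Itpr2, Atp2a2 and Stim1.

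Other genes of calcium handling were counted in lists by role. Over all lists, 39 of 109 genes rose and 31 fell with EnnA, 64.2% beside 49.2% of all genes, and 21 of 111 rose and 21 fell with 17-AAG, 37.8% beside 31.6%. The median log2 change was 0.05 with EnnA and 0.00 with 17-AAG, beside -0.01 over all genes in each table. The lists were chosen with earlier results of these data known. So neither these shares nor those by list below can show that calcium genes changed more often than others.

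In the list of other release and leak genes, 3 of 4 rose and 1 fell with EnnA, beside 49.2% of all genes called. Tmco1, described as a calcium leak channel of the store, rose 1.91-fold, Tmbim6, a leak channel that protects from cell death, rose 1.28-fold, and its relative Ghitm, which lies in the inner mitochondrial membrane, rose 2.80-fold, while Pkd2, the polycystin 2 channel, was 2.12-fold lower. With 17-AAG Pkd2 rose 1.33-fold and the other 3 were not called, beside 31.6% of all genes called. Of 17 partners of IP3 receptors, 7 rose and 5 fell with EnnA, and 1 rose and 5 fell with 17-AAG. That is 70.6% and 35.3% of this list called, beside 49.2% and 31.6% of all genes. Erlin1 and Erlin2, which together mark activated IP3 receptors for degradation, went apart with EnnA: Erlin1 rose 2.08-fold and Erlin2 was 2.27-fold lower. Bok, a BCL2 relative that binds IP3 receptors, was 2.42-fold lower with EnnA and 1.55-fold lower with 17-AAG.

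A list of 13 genes around IP3 production and removal also holds G protein and inositol phosphatase genes. Of these 13, 3 rose and 5 fell with EnnA, and 3 rose and 2 fell with 17-AAG. That is 61.5% and 38.5% of the list called, beside 49.2% and 31.6% of all genes. The G protein gene Gna11 and the phospholipase gene Plcb3, which act upstream of IP3, were 1.72-fold and 1.66-fold lower with EnnA, and Inpp1, an inositol phosphatase, was 2.30-fold lower. With 17-AAG Gnaq rose 1.98-fold and Plcd1 1.62-fold, while Gna11 was lower here too, 1.41-fold, and the inositol phosphatase gene Impa1 was 1.49-fold lower (1.30-fold lower with EnnA). In a list of 5 genes for other pumps and exchangers, 1 rose and 3 fell with EnnA, and 2 rose and 0 fell with 17-AAG. The counts were the same at the authors' unadjusted Cuffdiff p under 0.05. The shares called in this list were 80% with EnnA and 40% with 17-AAG, beside the same 49.2% and 31.6%. Slc24a6, which encodes the mitochondrial sodium-calcium exchanger NCLX, was the gene that rose with EnnA, 1.57-fold. Atp2b4, which encodes the surface membrane pump PMCA4, fell from 1.61 to 0.956 FPKM with EnnA and rose from 1.76 to 4.39 FPKM with 17-AAG, with the difference between the compounds called (-2.07 on the log2 scale, SE 0.37). Atp2c1, the pump of the Golgi, was 1.56-fold lower with EnnA. Cherp, the other gene of this list that rose with 17-AAG, encodes neither a pump nor an exchanger. It was 1.52-fold higher and is uncertain, as its locus overlaps that of another gene.

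In the list of store-operated entry 5 of 12 genes rose and 2 fell with EnnA, and 3 rose with 17-AAG and 0 fell. The counts at the authors' unadjusted p under 0.05 were the same. The shares called were 58.3% and 25%, beside 49.2% and 31.6% of all genes. Tmem66, which encodes SARAF, a brake on STIM1, rose from 93.8 to 188.0 FPKM with EnnA, and Orai3 rose 1.56-fold with 17-AAG. Sept4, a septin gene, was 4.63-fold lower with EnnA and 2.37-fold higher with 17-AAG, and the difference was called (-3.45, SE 0.63). Of 12 calcium binders of the store lumen, 9 rose and 2 fell with EnnA (median log2 change 0.62), and 1 rose and 4 fell with 17-AAG (median -0.21). The shares called were 91.7% and 41.7%, beside the same shares of all genes. These binders included Hspa5 and Calr, chaperones that also buffer calcium (4.51-fold and 2.49-fold higher with EnnA), and Nucb2, which was 2.02-fold higher with EnnA and 1.64-fold lower with 17-AAG. This list holds chaperones of the endoplasmic reticulum that were already known to rise here.

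**Figure D5:**
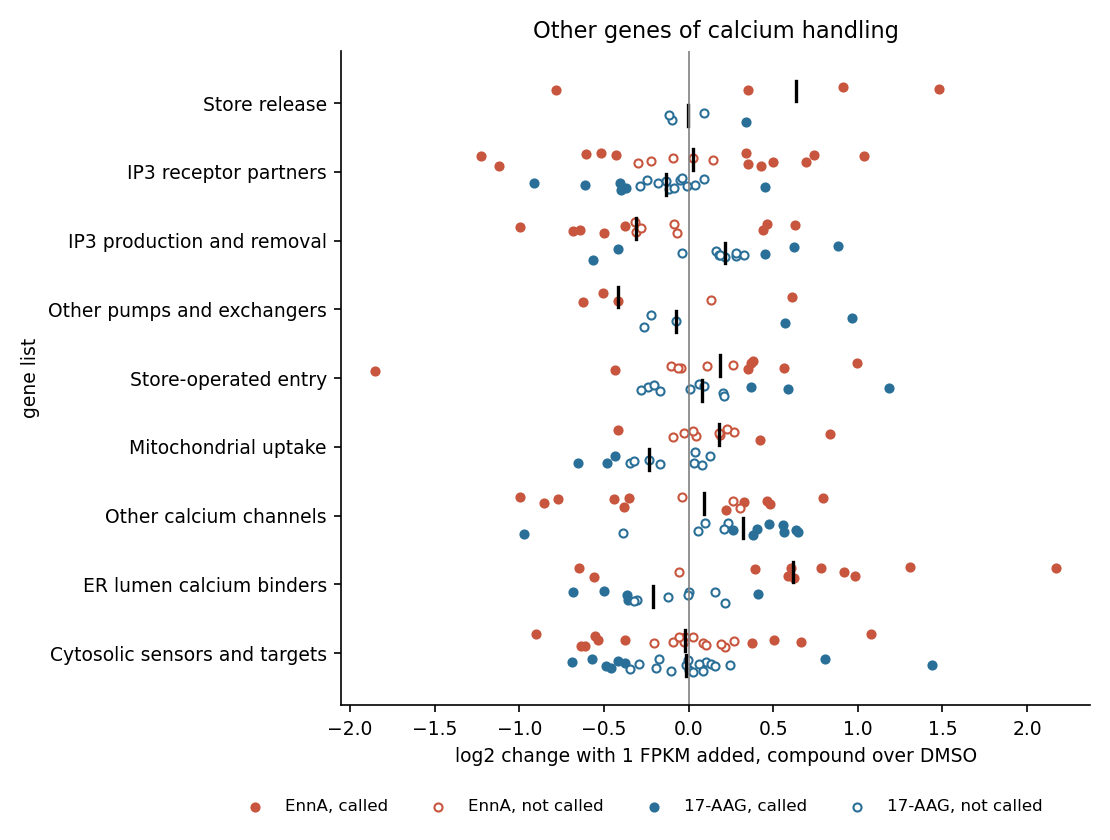
Log2 change with 1 FPKM added of each other calcium gene, by list, with EnnA (red) and 17-AAG (blue), filled where called at q under 0.05, with the median of each list (black bar). The median of the lumen calcium binders is 0.62 with EnnA and -0.21 with 17-AAG, and Sept4 is the EnnA point at -1.85 in the store-operated entry list.

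Markers of the labelled cell type were checked over whole lists. Of 6 epithelial markers, 2 had values, and they summed to 19.3 FPKM with DMSO and 13.0 FPKM with EnnA, and to 21.1 and 31.1 FPKM in the 17-AAG table. Of 4 leukocyte and 3 endothelial markers 0 had values in either table. Of 3 fibroblast markers 2 had values, summing to 10.7 and 26.9 FPKM with DMSO and EnnA and to 11.7 and 17.2 FPKM in the 17-AAG table, and they did not move alike. Pdgfra rose from 10.1 to 26.5 FPKM with EnnA and stood at 11.1 and 13.2 FPKM in the 17-AAG table (not called), whereas Col1a1 stood at 0.566 and 0.364 FPKM with DMSO and EnnA (not called) and rose from 0.620 to 3.95 FPKM with 17-AAG. Fabp4, the 1 adipocyte marker of 3 with a value, went from 430.8 to 148.2 FPKM with EnnA and from 472.0 to 55.7 FPKM with 17-AAG. The part of these shifts in the results was not tested. In bulk RNA, fewer cells that express a gene and less RNA of it per cell cannot be told apart.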

How the data were processed

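RNA of 6 libraries was sequenced. The submitters' processing notes name STAR, Cufflinks and Cuffdiff and the build mm9, with no versions. The deposited group values are the authors', pooled over the 2 libraries of a group, and were read as FPKM from Cuffdiff's layout, since the file headers name no unit. Every gene has at least 0.561 (EnnA) or 0.538 FPKM (17-AAG) in one group of its table, so 188 and 373 genes with DMSO under that level are listed through the compound value. The deposited log2 fold changes are DMSO over compound, per the file headers and the FPKM columns (0 and 2 genes of the EnnA and 17-AAG tables differed from their ratio by over 0.1), and their sign was turned. The deposited p-value is the authors' Cuffdiff p (lowest 5e-05) and the deposited q-value equals its Benjamini-Hochberg adjustment over each table. Depth per library is unknown, so no precision from depth can be given.

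The log2 ratio is compound over DMSO, and the log2 change has 1 FPKM added to each. The implied standard error is the log2 ratio over the normal quantile of the 2-sided p, an upper limit at the lowest p (2660 and 1249 genes). The difference test, a normal approximation and so given without p, takes the implied errors as known, also where they are upper limits. Its code was tested on simulated data. Python packages were numpy 2.4.6, pandas 2.3.3, scipy 1.17.1 and matplotlib 3.10.9.

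Members and lists were chosen with earlier results of these data known. Named genes are the 9 members, and per list and comparison up to 3 called genes of at least 1 FPKM with the largest change, plus the most abundant gene not called, of which some are given; a gene named for 1 comparison may be given for both. Tmbim6, Plcd3, Itpkc, Inpp5a, Cacna1a and Cacna2d1 were named after their values were seen. Alternatives were a pseudocount of 0.1 or none, a q under 0.01, a minimum 2-fold change, at least 1 FPKM in a group, median centring, removal of the trend with expression in 10 bins, leaving out overlapping loci and, for the difference, a direct comparison of compound columns.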

Additional observations from a re-analysis of the deposited data

How the results depend on the processing

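No paired analysis was possible because the tables hold values pooled over libraries, which also meant that leaving out single libraries was not run. Counts at a minimum 2-fold change, a q under 0.01 or an unadjusted p have no share of all genes beside them. They show only how far the calls depend on the threshold. With a minimum 2-fold change, 2 of the 9 genes were higher and 0 lower with EnnA (Itpr2, and Atp2a3, which is listed through its EnnA value alone), and 0 were higher and 0 lower with 17-AAG. In the other lists that minimum left 7 higher and 6 lower with EnnA and 4 higher and 1 lower with 17-AAG. Those 4 include Cacna1a and Camk2a, which are listed through their 17-AAG value alone, so their direction was fixed. At a q under 0.01, 0 of the 8 genes were lower with 17-AAG, against 1 at 0.05, and the other lists held 12 lower. For the difference between the compounds, 0 genes were called at an adjusted p under 0.01 or with a minimum 2-fold difference, and 2 with the trend with expression removed; in the other lists the minimum 2-fold difference left 9 higher and 11 lower with EnnA. Only median centring and removal of the trend could turn the sign of a log2 change against DMSO, and no called member's sign turned under them. No member's difference that was called in either setting turned its sign under an alternative that changed its value. With 0.1 FPKM added, or none, the log2 value of Atp2a3 with EnnA was 2.24 or 2.96 in place of 0.80. With genes listed through the compound value alone left out, a choice made after seeing the data, 4 of 8 genes rose and 1 fell with EnnA, and in the other lists 38 rose and 31 fell with EnnA and 19 rose and 21 fell with 17-AAG. Pooled FPKM and a lowest p of 5e-05 limit precision: errors of the clearest changes are known only as upper limits.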

Other observations

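Genes of mitochondrial calcium uptake and of cytosolic calcium sensing, which take up or read the calcium that the store releases, were measured in the same tables. Of 11 genes of mitochondrial uptake, 2 rose and 1 fell with EnnA, and 0 rose and 3 fell with 17-AAG (0 and 5 at the authors' unadjusted Cuffdiff p under 0.05). That is 27.3% of the list called with each compound, beside 49.2% and 31.6% of all genes. Mcu, the pore of the uniporter, was 1.36-fold higher with EnnA and 1.43-fold lower with 17-AAG, and the difference of 0.96 on the log2 scale (SE 0.22) was called. The outer membrane channel gene Vdac3 was 1.82-fold higher with EnnA, while Vdac1 was 1.33-fold lower.

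Of the cytosolic sensors and targets, 4 of 21 rose and 6 fell with EnnA, and 2 of 23 rose and 6 fell with 17-AAG, a share of called genes (47.6% and 34.8%) close to that of all genes (49.2% and 31.6%). Camk2a, 1 of the 2 that rose with 17-AAG, is listed through its 17-AAG value alone (0.374 and 2.72 FPKM), and without such genes 1 of 21 rose and 6 fell. Calm2, a calmodulin gene, was 1.87-fold lower with EnnA; the 3 mouse calmodulin genes encode the same protein, so reads may be split among them. Ppp3cc, a catalytic subunit of calcineurin, was 1.45-fold higher with EnnA and 1.68-fold lower with 17-AAG, and this difference was called (1.28, SE 0.24). Among 14 other calcium channel genes, 5 rose and 6 fell with EnnA, and 8 rose and 1 fell with 17-AAG. That is 78.6% and 64.3% of this list called, beside 49.2% and 31.6% of all genes. Cacna2d1 in the EnnA table (0.354 and 0.576 FPKM) and Cacna1a in the 17-AAG table (0.0946 and 0.703 FPKM) are listed through the compound value alone, which fixed their direction. Without them 4 of 13 rose and 6 fell with EnnA, and 7 of 13 rose and 1 fell with 17-AAG. P2rx4, an ATP-gated channel gene, was 1.85-fold lower with EnnA and 2.02-fold lower with 17-AAG, and the related P2rx7 rose 1.78-fold with EnnA. Cacnb3, a subunit of voltage-gated channels, was 2.32-fold lower with EnnA and 1.64-fold higher with 17-AAG (difference -1.92, SE 0.35, called).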
